A study of Mus musculus with 17 samples.

Results

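The genes described here code for the core proteins of the basement membrane: the laminin chains Lama1, Lama5, Lamb1 and Lamc1, the collagen IV chains Col4a1 and Col4a2, the nidogens Nid1 and Nid2, and the heparan sulphate proteoglycans perlecan (Hspg2) and agrin (Agrn). These 10 genes were taken by name from the 49671 genes of the count tables, and all 10 passed the filter on low counts, as did 17813 genes in all. RNA was measured in 17 libraries of R1 mouse embryonic stem cells with a FOXA2-Venus reporter, from a study of the floor plate, the strip of cells along the ventral side of the neural tube, in organoids. The libraries fall into 6 groups, by treatment and by FOXA2 state, and every group had 18 hours of retinoic acid. The BMP4 groups (3 FOXA2-positive and 3 FOXA2-negative libraries) and the LDN groups (2 FOXA2-positive and 3 FOXA2-negative) then had 6 hours with no treatment and 8 hours of the growth factor BMP4 or of an agent named only as LDN. For the RA groups (3 FOXA2-positive and 3 FOXA2-negative) the labels give the retinoic acid alone, so treatment and time cannot be told apart in comparisons with RA. All cells derive from a single embryonic stem cell line, and no label says whether libraries with the same treatment and state are separate cultures. The p-values therefore reflect the spread among these libraries alone, and that spread may be technical.

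A basement membrane is the sheet of extracellular matrix under an epithelium. Laminins, trimers of an alpha, a beta and a gamma chain, polymerise on the cell surface and bind integrins and dystroglycan. Collagen IV forms a second, cross-linked network, and nidogens, perlecan and agrin join the networks to each other and to cells. In the embryo the neural epithelium rests on such a membrane, and the alpha chain decides which receptors a laminin binds.

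Gene counts per library ran from 8435845 to 10796136, with a median of 9785138. The 10 genes together took between 0.0349% and 0.0513% of these counts. Foxa2 averaged 25.9, 42.0 and 23.0 CPM in FOXA2-positive cells of BMP4, LDN and RA, against 0.775, 1.85 and 0.311 CPM in the matching FOXA2-negative cells. CPM is the count normalised to library size, with TMM scaling for library composition. Both RA libraries numbered 1 stood apart in their share of mitochondrial counts, 7.43% in the FOXA2-positive and 6.95% in the FOXA2-negative library, against 3.50% to 4.81% in the other 15.

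Of the 10 genes, 3 were higher in FOXA2-positive cells when the difference between fractions was averaged over the 3 treatments: Lama1 by 4.08-fold, Col4a1 by 2.95-fold and Lamb1 by 1.56-fold (edgeR's quasi-likelihood test, adjusted p = 0.017, 0.00257 and 0.000738). None was lower, and 7.62% of all genes tested passed in that comparison, 3.12% upwards and 4.5% downwards. Within single treatments only Lamb1 passed the threshold of 0.05, in BMP4. No treatment comparison and no difference between treatments passed for any of the 10. The averaged comparison was added after the counts had been examined. In RNA from whole fractions, fewer cells of a type and less RNA per cell cannot be told apart.

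Lamb1 (ENSMUSG00000002900, chromosome 12, 31265234 to 31329644, plus strand, mm10) codes for the beta 1 chain, which nearly all embryonic laminins share. In BMP4 it stood at 140, 159 and 121 CPM in FOXA2-positive libraries, against 88.8, 79.5 and 54.8 CPM in FOXA2-negative libraries. In LDN it stood at 122 and 123 CPM in FOXA2-positive libraries, against 79.8, 93.4 and 78.2 CPM in FOXA2-negative libraries. In RA it stood at 145, 93.3 and 94.2 CPM in FOXA2-positive libraries, against 83.3, 83.8 and 76.4 CPM in FOXA2-negative libraries. Every FOXA2-positive library lay above all FOXA2-negative libraries of its treatment, with the narrowest gap in RA, where replicate 1 alone was far above. Lamb1 was the only one of the 10 genes whose fractions did not overlap in any treatment, a pattern that 0.954% of all genes tested showed in the same direction.

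The log2 fold change of Lamb1 between fractions was 0.92 ± 0.195 in BMP4 (SE; edgeR's quasi-likelihood test, adjusted p = 0.0168), where 0.921% of all genes tested passed, 0.32% upwards. It was 0.55 ± 0.215 in LDN (adjusted p = 0.311) and 0.45 ± 0.194 in RA (adjusted p = 0.391). The call in BMP4 was lost when the BMP4 groups were fitted alone (adjusted p = 0.0517) and without FOXA2-positive library 1 or 2 or FOXA2-negative library 2 or 3 of BMP4 (0.0646, 0.115, 0.0624 and 0.0912). Averaged over the treatments the log2 fold change was 0.64 ± 0.116, and it passed in all 25 alternative settings and left-out libraries (adjusted p of 0.00316 at most). Without both RA libraries numbered 1 the log2 fold changes were 0.57 on average (adjusted p = 0.00182) and 0.23 ± 0.211 in RA.

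The 250 bases before the RefSeq start site of Lamb1 are shown because Lamb1 is the member that passed within a treatment. They come from RefSeq on GRCm38.p6, chr12:31265043-31265292, plus strand, and contain the annotated gene start used above.
Lamb1 upstream: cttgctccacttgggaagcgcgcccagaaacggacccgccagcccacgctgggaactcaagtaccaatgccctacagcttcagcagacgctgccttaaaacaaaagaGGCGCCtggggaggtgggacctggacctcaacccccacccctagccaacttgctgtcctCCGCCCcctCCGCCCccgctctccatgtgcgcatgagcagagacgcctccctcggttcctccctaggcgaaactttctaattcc
Capitals mark matches, on either strand, to the GC box GGGCGG and to GGCGCC, a motif that BMP-responsive SMAD proteins bind, and the 3 matches do not overlap. Windows of 300 bases (250 before and 50 after the start) were found for 7 of the 10 genes, not for Lama1, Lamc1 and Nid2. GGGCGG was present in 7 of 7 of these windows and in 35.7% of 32851 windows of the genome. The windows of Col4a1 and Col4a2 share 78 bases that hold the 1 GGGCGG match of Col4a1, so this site counts for both genes. GGCGCC was present in 5 of 7, among them Lamb1, Lama5, Col4a1, Hspg2 and Agrn, and in 11.9% of all windows. The forkhead motif TGTTTAC, which FOXA proteins bind, was present in 0 of 7 and in 3.65% of all windows. A match describes letters only, and no match says only that these letters are not in the window.

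Lama1 (ENSMUSG00000032796, chromosome 17, 67697259 to 67822647, plus strand) codes for the alpha 1 chain, the alpha chain of the earliest embryonic basement membranes. In BMP4 it stood at 44.6, 16.1 and 12.9 CPM in FOXA2-positive libraries, against 0.116, 2.26 and 11.3 CPM in FOXA2-negative libraries. In LDN it stood at 14.5 and 38.6 CPM in FOXA2-positive libraries, against 3.14, 3.40 and 4.31 CPM in FOXA2-negative libraries. In RA it stood at 20.7, 25.2 and 15.4 CPM in FOXA2-positive libraries, against 19.2, 5.58 and 10.1 CPM in FOXA2-negative libraries. The fractions did not overlap in BMP4 and LDN, and overlapped in RA through FOXA2-negative library 1, one of the pair with the high mitochondrial share. The lowest value, in FOXA2-negative BMP4 library 1, rests on 1 count.

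The spread of Lama1 within groups was wide, and none of its single-treatment differences passed. The log2 fold change was 2.41 ± 0.844 in BMP4, 2.87 ± 0.912 in LDN and 0.81 ± 0.80 in RA (SE; adjusted p = 0.27, 0.19 and 0.832). Without FOXA2-negative BMP4 library 3, the highest of its group, the BMP4 value was 4.33 and passed (adjusted p = 0.00955). Without a filter on low counts BMP4 and LDN passed at nearly the same sizes (2.40 and 2.86, adjusted p = 6.62e-05 and 4.07e-06). LDN also passed with DESeq2 (adjusted p = 0.0364), with the LDN groups fitted alone (0.0275) and without FOXA2-negative BMP4 library 1 or 3 (0.0204 and 0.0307). The averaged log2 fold change was 2.03 ± 0.492 and passed in 23 of 25 alternatives. It did not pass with the replicate number as a block (adjusted p = 0.144) or without FOXA2-positive LDN library 3 (log2 fold change 1.73, adjusted p = 0.0829). Without both RA libraries numbered 1 it was 2.22 on average (adjusted p = 0.0212) and 1.37 ± 1.02 in RA.

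Lama5 (ENSMUSG00000015647, chromosome 2, 180176373 to 180225859, minus strand) codes for the alpha 5 chain, which is broadly used in epithelial basement membranes. It stood at 54.0, 57.3 and 51.9 CPM in FOXA2-positive BMP4 libraries, against 59.9, 54.1 and 54.5 CPM in FOXA2-negative ones. In LDN it stood at 39.7 and 30.2 CPM in FOXA2-positive libraries, against 47.7, 46.9 and 58.9 CPM in FOXA2-negative libraries. In RA it stood at 41.0, 56.5 and 41.4 CPM in FOXA2-positive libraries, against 78.1, 52.4 and 67.5 CPM in FOXA2-negative libraries. The fractions overlapped in BMP4 and RA and were apart in LDN, with the FOXA2-positive libraries below. The averaged log2 fold change was -0.37 ± 0.127 and missed the threshold (adjusted p = 0.0789), although DESeq2 called Lama5 lower (adjusted p = 0.0413), as did edgeR without FOXA2-positive RA library 2 (adjusted p = 0.0499). In the averaged comparison DESeq2 called 1728 genes in all, against 1357 with edgeR.

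Levels of different genes were compared per kilobase of exon. The length merges all annotated exons of a gene, whichever transcripts were expressed, so such comparisons are approximate. On this scale Lama1 made up between 22.6% and 60.1% of the sum of Lama1 and Lama5 in the 8 FOXA2-positive libraries (median 32.4%). In the 9 FOXA2-negative libraries it made up between 0.228% and 22.5% (median 7.93%). The 2 ranges did not overlap, but their ends nearly touched, at the FOXA2-positive BMP4 and the FOXA2-negative RA groups. By group the share averaged 32.3% ± 14.8 and 8.18% ± 10.2 in FOXA2-positive and FOXA2-negative BMP4 cells (SD, n = 3 each). It averaged 45.1% ± 21.2 (n = 2) and 7.66% ± 0.403 (n = 3) in FOXA2-positive and FOXA2-negative LDN cells, and 34.0% ± 3.38 and 16.2% ± 5.76 in FOXA2-positive and FOXA2-negative RA cells (n = 3 each). The share is a description and was not tested. The summed level of both alpha chains overlapped between fractions, at 4.98 to 9.35 CPM per kilobase in FOXA2-positive and 4.47 to 8.84 CPM per kilobase in FOXA2-negative libraries.

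Lamc1 (ENSMUSG00000026478, chromosome 1, 153218922 to 153332786, minus strand) codes for the gamma 1 chain, the usual partner of beta 1. It ranged from 16.2 to 37.7 CPM in FOXA2-positive libraries (median 25.7, n = 8) and from 15.1 to 38.1 CPM in FOXA2-negative libraries (median 29.1, n = 9). The fractions overlapped in every treatment, and the averaged log2 fold change was -0.14 ± 0.177 (adjusted p = 0.782). The ratio of Lamb1 to Lamc1 per kilobase was between 2.64 and 6.25 in FOXA2-positive libraries (median 4.04) and between 1.65 and 4.41 in FOXA2-negative libraries (median 1.94). Within BMP4 this ratio was 5.17 ± 0.941 in FOXA2-positive and 2.22 ± 0.491 in FOXA2-negative cells (SD, n = 3 each), and within RA it was 3.05 ± 0.361 in FOXA2-positive and 1.89 ± 0.0521 in FOXA2-negative cells. In LDN it was 4.04 ± 0.210 in FOXA2-positive cells (n = 2) and 3.27 ± 1.25 in FOXA2-negative cells (n = 3), where the ranges overlapped.

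**Figure D1:**
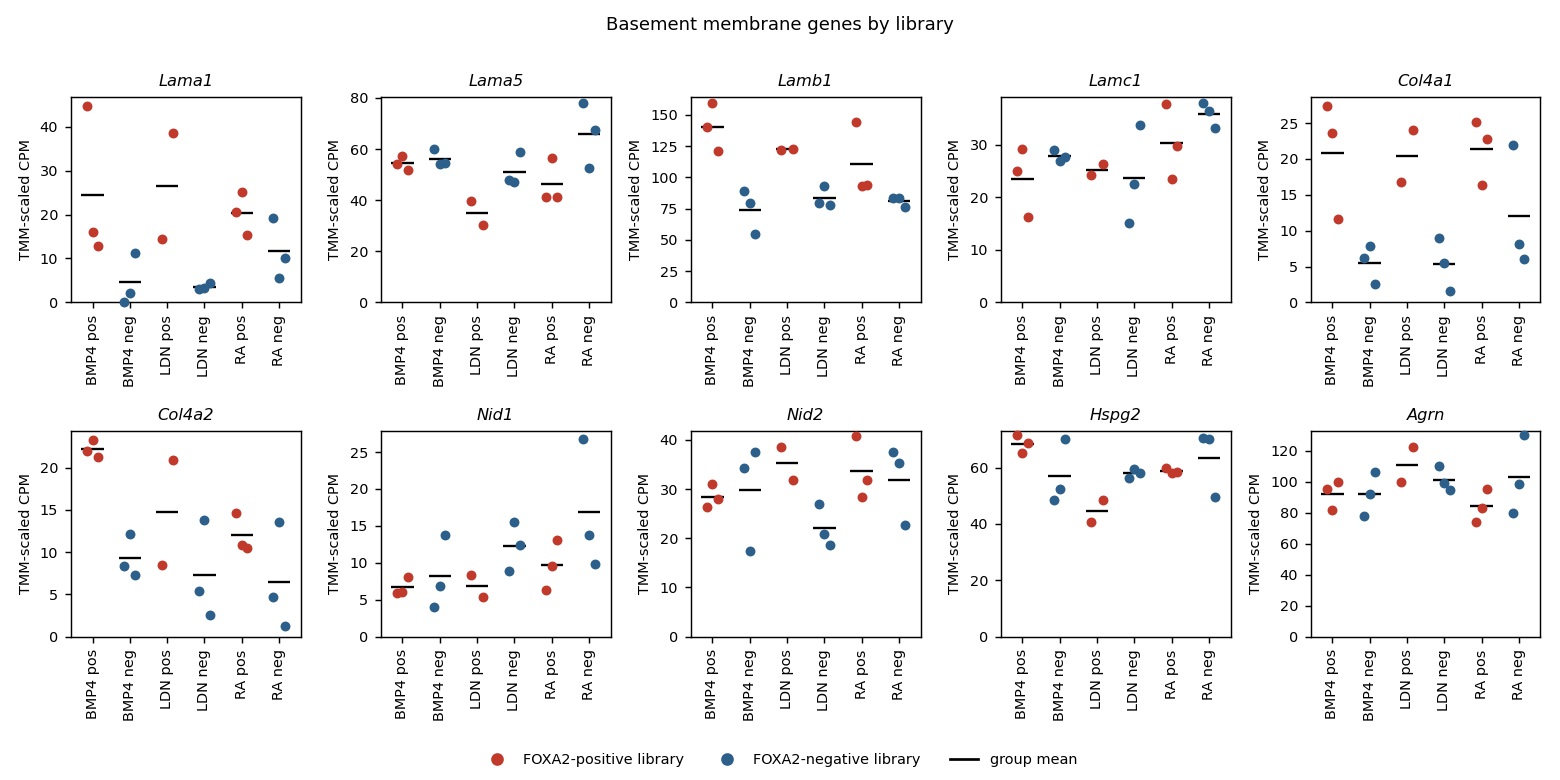
TMM-scaled CPM (vertical axes, from 0) of the 10 basement membrane genes in each of 17 libraries, by treatment and FOXA2 state; points are libraries and bars are group means. All FOXA2-positive points for Lamb1 lie above the FOXA2-negative points of the same treatment, while Lamc1, Hspg2 and Agrn overlap in most treatments.

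Col4a1 (ENSMUSG00000031502, chromosome 8, 11198423 to 11312826, minus strand) and Col4a2 (ENSMUSG00000031503, chromosome 8, 11312805 to 11449287, plus strand) code for the 2 chains of the common collagen IV trimer. They are a head-to-head pair, and their first exons share 22 bases on opposite strands. The RefSeq bases around both starts are shown because both genes start within them (GRCm38.p6, chr8:11312777-11312854, plus strand, with the 22 bases from the Col4a2 start to the Col4a1 start in capitals).
Col4a2 and Col4a1 shared window: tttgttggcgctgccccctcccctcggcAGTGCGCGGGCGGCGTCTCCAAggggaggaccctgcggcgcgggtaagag
The strand setting of the counting is not given in the sources used here, so reads within those 22 bases, 0.295% of the exon length of Col4a1 and 0.332% of that of Col4a2, cannot be assigned to one of the genes with certainty. The same holds for 43 bases (0.65%) that Col4a2 shares with the antisense gene Gm15419.

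Col4a1 stood at 27.4, 23.6 and 11.6 CPM in FOXA2-positive BMP4 libraries, against 6.17, 7.85 and 2.55 CPM in FOXA2-negative ones. In LDN it stood at 16.8 and 24.1 CPM in FOXA2-positive libraries, against 9.01, 5.44 and 1.57 CPM in FOXA2-negative libraries. In RA it stood at 25.1, 16.3 and 22.8 CPM in FOXA2-positive libraries, against 21.95, 8.13 and 6.04 CPM in FOXA2-negative libraries. The fractions were apart in BMP4 and LDN, and overlapped in RA through FOXA2-negative library 1, as for Lama1. The log2 fold change was 1.92 ± 0.553 in BMP4, 1.93 ± 0.593 in LDN and 0.83 ± 0.532 in RA (SE; adjusted p = 0.11, 0.138 and 0.62). Without a filter on low counts BMP4 and LDN passed (1.92 and 1.93, adjusted p = 0.00553 and 0.0117). The averaged value of 1.56 ± 0.323 passed in all 25 alternatives, between 1.42 and 1.90. Without both RA libraries numbered 1 it was 1.77 on average (adjusted p = 0.00139) and 1.46 ± 0.64 in RA (adjusted p = 0.46).

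Col4a2 stood at 22.01, 23.3 and 21.2 CPM in FOXA2-positive BMP4 libraries, against 8.38, 12.2 and 7.26 CPM in FOXA2-negative ones. In LDN it stood at 8.52 and 20.9 CPM in FOXA2-positive libraries, against 5.35, 13.8 and 2.55 CPM in FOXA2-negative libraries. In RA it stood at 14.6, 10.9 and 10.5 CPM in FOXA2-positive libraries, against 4.70, 13.5 and 1.21 CPM in FOXA2-negative libraries. The fractions were apart in BMP4 and overlapped in LDN and RA, each time through FOXA2-negative library 2. Its log2 fold changes of 1.258 ± 0.602 in BMP4, 1.02 ± 0.66 in LDN and 0.88 ± 0.604 in RA did not pass (SE; adjusted p = 0.456, 0.56 and 0.659). Neither did the averaged value of 1.06 ± 0.359 (adjusted p = 0.075), which passed in 3 of 25 alternatives.

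The level of Col4a1 and Col4a2 together was 3.53 to 6.996 CPM per kilobase in FOXA2-positive libraries and 0.595 to 3.65 CPM per kilobase in FOXA2-negative libraries, a narrow overlap. Both genes lie on chromosome 8, whose 407 genes of at least 20 CPM had median log2 fold changes between fractions of -0.303 in BMP4, -0.268 in LDN and -0.309 in RA. The other chromosomes that carry members had medians from -0.029 to 0.0739 in these comparisons. Against the averaged median of -0.292 of chromosome 8, the averaged log2 fold changes were 1.85 for Col4a1 and 1.35 for Col4a2. The part of this chromosome-wide shift in the result was not tested. Within fractions the log2 levels of both genes correlated weakly, with Pearson's r of 0.217 over the 8 FOXA2-positive and 0.192 over the 9 FOXA2-negative libraries, which mix treatments.

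**Figure D2:**
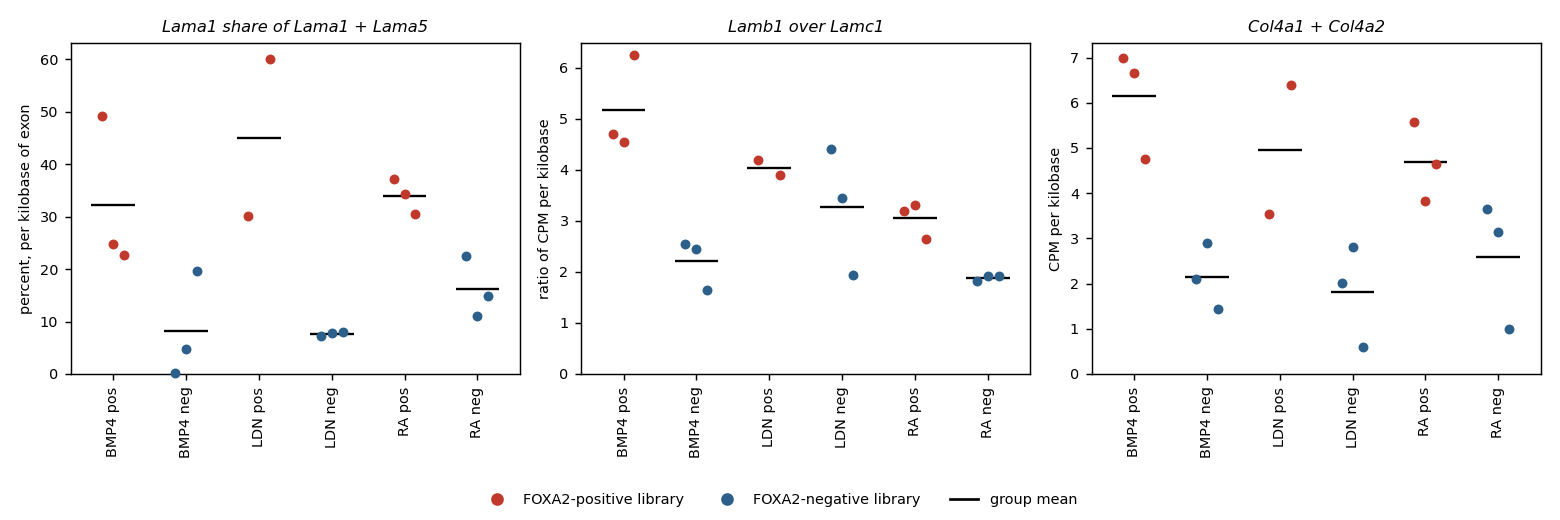
Share of Lama1 in the sum of Lama1 and Lama5 (percent), ratio of Lamb1 to Lamc1, and summed level of Col4a1 and Col4a2 (CPM per kilobase of exon) in each library; points are libraries and bars are group means. The Lama1 share is 22.6% or more in FOXA2-positive and 22.5% or less in FOXA2-negative libraries.

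Nid1 (ENSMUSG00000005397, chromosome 13, 13437551 to 13512269, plus strand) and Nid2 (ENSMUSG00000021806, chromosome 14, 19751265 to 19811787, plus strand) code for the nidogens, which link laminin to collagen IV. Nid1 ranged from 5.30 to 13.1 CPM in FOXA2-positive libraries (median 7.18, n = 8) and from 4.07 to 26.8 CPM in FOXA2-negative libraries (median 12.4, n = 9). Nid2 ranged from 26.3 to 40.7 CPM in FOXA2-positive libraries (median 31.4) and from 17.4 to 37.6 CPM in FOXA2-negative libraries (median 27.04). Both genes overlapped between fractions in BMP4 and RA. In LDN the fractions were apart in opposite directions: Nid1 stood at 8.33 and 5.30 CPM in FOXA2-positive libraries, against 8.91, 15.5 and 12.4 CPM in FOXA2-negative ones. Nid2 stood there at 38.5 and 31.9 CPM in FOXA2-positive libraries, against 27.04, 20.9 and 18.6 CPM in FOXA2-negative ones. The LDN log2 fold changes were -0.85 ± 0.567 for Nid1 and 0.67 ± 0.321 for Nid2 (SE; adjusted p = 0.575 and 0.442). Averaged over treatments they were -0.65 ± 0.30 and 0.22 ± 0.174, and neither passed (adjusted p = 0.217 and 0.533). Of the exon length of Nid2, 8.45% is shared with Rtraf on the opposite strand. With no strand setting given, how reads there were counted is not known.

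Hspg2 (ENSMUSG00000028763, chromosome 4, 137468769 to 137570630, plus strand), the perlecan gene, ranged from 40.8 to 71.5 CPM in FOXA2-positive libraries (median 59.1) and from 48.6 to 70.5 CPM in FOXA2-negative libraries (median 58.0). Agrn (ENSMUSG00000041936, chromosome 4, 156165290 to 156197488, minus strand), whose product agrin binds laminin and dystroglycan, ranged from 74.3 to 122 CPM in FOXA2-positive libraries (median 95.4) and from 78.0 to 130 CPM in FOXA2-negative libraries (median 98.6). Both genes overlapped between fractions in every treatment except Hspg2 in LDN, where the FOXA2-positive libraries were lower. The averaged log2 fold changes were -0.07 ± 0.118 for Hspg2 and -0.05 ± 0.112 for Agrn (SE; adjusted p = 0.842 and 0.905).

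Counted over the 10 genes, the fractions did not overlap for 4 genes in BMP4, all higher in FOXA2-positive cells (Lama1, Lamb1, Col4a1 and Col4a2), where 14.8% of all genes tested did not overlap, 7.51% upwards. In LDN, with 2 FOXA2-positive libraries, 7 did not overlap (Lama1, Lamb1, Col4a1 and Nid2 higher, Lama5, Nid1 and Hspg2 lower), where 27.8% of all genes did not, 13.1% upwards and 14.7% downwards. In RA, Lamb1 alone did not overlap, upwards, against 15.2% of all genes, 7.25% upwards. In RA, where same-numbered libraries were taken as paired, the FOXA2-positive library was the higher of all 3 pairs for 3 members (Lama1, Lamb1 and Col4a1) and the lower for 2 (Lamc1 and Agrn), as for 17.1% and 16.9% of all genes tested, a count added after the data were seen. The log2 differences within pairs 1, 2 and 3 were 0.10, 2.13 and 0.60 for Lama1, 0.79, 0.16 and 0.30 for Lamb1, and 0.19, 0.99 and 1.88 for Col4a1. With the replicate number as a block none of these passed in RA (adjusted p = 0.882, 0.277 and 0.375). The check of the replicate numbers did not tell pairs 2 and 3 apart. For Lama1, Lamb1 and Col4a1 the fractions were apart upwards in both BMP4 and LDN, as for 2.5% of all genes tested. The median averaged log2 fold change of the 10 genes was 0.0858, against -0.0253 over all genes tested.

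In LDN and in RA, 0 of the 10 genes passed with edgeR's quasi-likelihood test, against 0.994% and 1.19% of all genes. At an unadjusted p under 0.05 stood 5 members in LDN and 2 in RA, against 11.2% and 10.7% of all genes. DESeq2 called 1 member in LDN (Lama1, higher) and 0 in RA. Over all genes it called more than edgeR, 481 against 177 in LDN and 441 against 212 in RA. The tests of whether the difference between fractions itself differed between treatments also gave 0 calls by either tool. In these, 1 member (Hspg2, BMP4 minus LDN, 0.64 ± 0.296) had an unadjusted p under 0.05, and the lowest adjusted p was 0.802. Of all genes tested with edgeR, 0.00561% passed for BMP4 minus RA and for LDN minus RA, and 0.0337% for BMP4 minus LDN, with 4.17%, 5.81% and 6.18% at an unadjusted p under 0.05. DESeq2 called 5, 8 and 34 genes in these tests, against 1, 1 and 6 with edgeR. For Lama1 the difference of log2 fold changes was 1.59 ± 1.14 for BMP4 minus RA and 2.06 ± 1.20 for LDN minus RA.

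**Figure D3:**
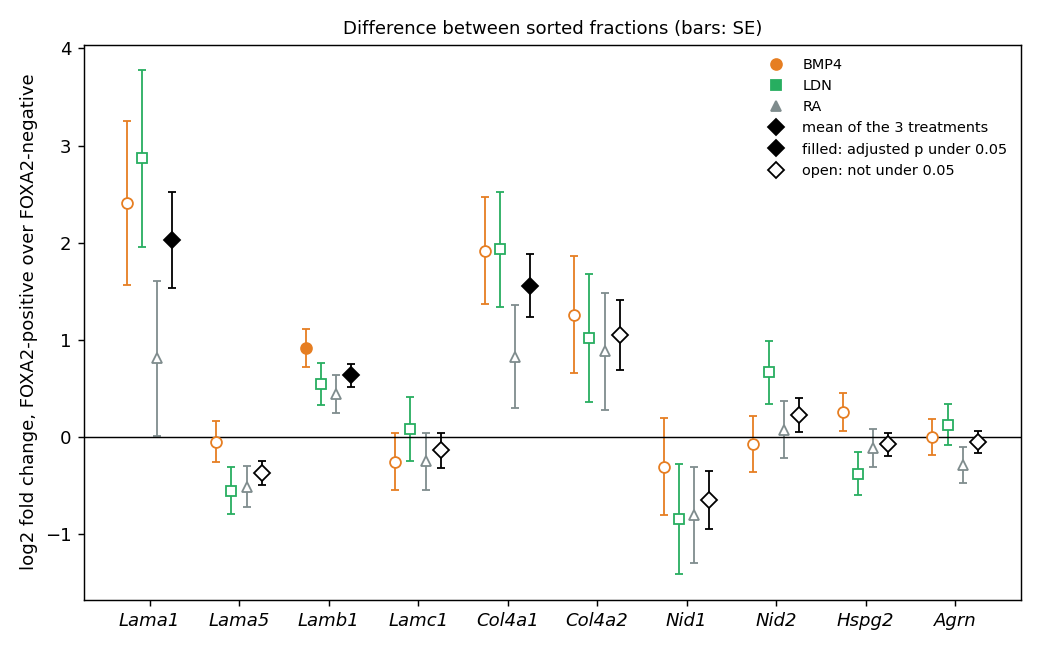
log2 fold change of FOXA2-positive over FOXA2-negative cells (vertical axis) for each gene in BMP4, LDN, RA and averaged over the 3 treatments; bars are standard errors and filled symbols passed an adjusted p of 0.05. Filled symbols are Lamb1 in BMP4 and Lama1, Lamb1 and Col4a1 in the average.

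Treatment itself changed none of the 10 genes past the threshold in either fraction. The counts were 0 in all 6 comparisons by edgeR's quasi-likelihood test and by DESeq2. With edgeR 0.0786% of all genes passed for BMP4 against RA in each fraction. For LDN against RA 0.208% passed with edgeR in FOXA2-positive and 0.0393% in FOXA2-negative cells, and for BMP4 against LDN 0.32% and 0.196%. DESeq2 called more genes. In FOXA2-positive and FOXA2-negative cells it called 46 and 56 for BMP4 against RA (edgeR 14 and 14). For LDN against RA it called 202 and 39 (edgeR 37 and 7), and for BMP4 against LDN 174 and 118 (edgeR 57 and 35). In FOXA2-positive cells, 2 members had an unadjusted p under 0.05 for BMP4 against LDN, 0 for BMP4 against RA and 0 for LDN against RA, where 7.37%, 5.6% and 9.35% of all genes did. In FOXA2-negative cells the counts were 0 for BMP4 against LDN, 2 for BMP4 against RA and 1 for LDN against RA, where 7.06%, 7.36% and 7.5% of all genes did.

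The members concerned in FOXA2-positive cells were Hspg2 and Lama5. Hspg2 stood at 71.5, 65.1 and 68.8 CPM in FOXA2-positive BMP4 libraries, at 40.8 and 48.4 CPM in LDN and at 59.7, 58.1 and 58.4 CPM in RA. The 3 groups of FOXA2-positive libraries did not overlap for Hspg2, with BMP4 highest and LDN lowest. Its log2 fold change for BMP4 over LDN was 0.62 ± 0.223 (SE; adjusted p = 0.461). For Lama5 the same comparison gave 0.64 ± 0.24 (adjusted p = 0.507), and the libraries of both groups did not overlap. There 3 members were apart upwards (Hspg2, Lama5 and Col4a2) and 2 downwards (Nid2 and Agrn), against 11.6% and 10.8% of all genes tested. In FOXA2-positive cells 22.4% of all genes did not overlap for BMP4 against LDN, 11.8% for BMP4 against RA and 26% for LDN against RA. The comparison of LDN over RA in FOXA2-positive cells, which uses the same LDN libraries, gave -0.40 for Hspg2 and -0.41 for Lama5.

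In FOXA2-negative cells the members concerned were Col4a1, with log2 fold changes of -1.13 ± 0.546 for BMP4 and -1.17 ± 0.546 for LDN over RA (SE; adjusted p = 0.672 and 0.647), and Nid1, with -1.02 ± 0.496 for BMP4 over RA (adjusted p = 0.672). Both comparisons share the RA libraries. Within RA, FOXA2-negative library 1 held the highest value of both genes, 21.95 CPM for Col4a1 and 26.8 CPM for Nid1. It was also one of the pair with the high mitochondrial share. Without both libraries of that pair the log2 fold changes over RA were -0.36 for Col4a1 and -0.52 for Nid1 in BMP4, and -0.41 for Col4a1 in LDN.

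Over all 17 libraries, levels per kilobase of exon were highest for Agrn (10.4 ± 1.63 CPM per kilobase, SD) and Lamb1 (10.2 ± 2.91). Nid2 (5.78 ± 1.38), Lama5 (4.61 ± 0.981), Hspg2 (4.14 ± 0.647) and Lamc1 (3.38 ± 0.809) followed. Col4a1 (1.86 ± 1.178), Col4a2 (1.79 ± 1.04), Lama1 (1.504 ± 1.29) and Nid1 (1.48 ± 0.785) were lowest. Neighbours in this order differed by less than the larger of their SDs, except Lamb1 from Nid2 and Lamc1 from Col4a1. The order also rests on the merged exon lengths and is approximate. The order changed with FOXA2 state. In FOXA2-positive cells Lamb1 (12.6 ± 2.35, n = 8) stood above Agrn (10.1 ± 1.60), and in FOXA2-negative cells Agrn (10.7 ± 1.72, n = 9) above Lamb1 (8.04 ± 1.09). Among the lowest 4, Nid1 was last in FOXA2-positive cells (1.13 ± 0.371), under Col4a1 (2.81 ± 0.725), Col4a2 (2.49 ± 0.907) and Lama1 (2.43 ± 1.23). In FOXA2-negative cells Nid1 was first of these (1.79 ± 0.937), above Col4a2 (1.16 ± 0.706), Col4a1 (1.02 ± 0.792) and Lama1 (0.683 ± 0.615).

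The members did not vary as one block among libraries of a fraction. Over the 45 pairs, Pearson's r of log2 CPM ran from -0.818 to 0.811 with a median of -0.0292 in FOXA2-positive libraries (n = 8) and from -0.578 to 0.86 with a median of 0.136 in FOXA2-negative libraries (n = 9). The closest pairs were Lamc1 and Col4a1 (0.811) in FOXA2-positive and Lama1 and Nid1 (0.86) in FOXA2-negative libraries. Lama5 and Hspg2 followed each other at 0.697 in FOXA2-positive libraries. The libraries share treatments and depth, so these values are descriptions. Among the genes most like the mean of the standardised members, of 6663 with at least 20 CPM, were Dhx29, Asap2, Pknox1 and Axin1 in FOXA2-positive libraries (r from 0.902 to 0.93). In FOXA2-negative libraries they were Apbb2, Arid2, Prkar2a, Cnot1 and Prdm2 (0.907 to 0.95).

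Around these proteins, 99 genes of other laminin and collagen IV chains, further basement membrane proteins, receptors, matrix assembly enzymes, dystroglycan-glycosylating enzymes and matrix proteases were listed, and 90 could be tested. In the averaged comparison 8 of the 90 were higher and 2 lower in FOXA2-positive cells, against 3.12% and 4.5% of all genes tested. Their median log2 fold change was 0.0823. Within treatments 1 passed, Timp2 in BMP4.

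Of the other basement membrane proteins 3 of 19 tested were higher. Pxdn, peroxidasin, which forms the sulfilimine cross-links of collagen IV, averaged 30.7 ± 4.56 CPM in FOXA2-positive against 19.2 ± 4.43 CPM in FOXA2-negative libraries (SD, n = 8 and 9; log2 fold change 0.71 ± 0.167, SE, adjusted p = 0.00841). Col18a1, a basement membrane collagen that carries heparan sulphate, averaged 474 ± 51.6 CPM in FOXA2-positive against 381 ± 45.9 CPM in FOXA2-negative libraries (0.32 ± 0.088, adjusted p = 0.0229). Fras1, of the complex that anchors embryonic epithelia, averaged 18.7 ± 4.55 CPM in FOXA2-positive against 11.03 ± 3.12 CPM in FOXA2-negative libraries (0.78 ± 0.23, adjusted p = 0.0357). Pxdn passed in all 25 alternatives, Col18a1 in 21 and Fras1 in 13.

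Of the receptors 2 of 15 were higher. Itga6, the integrin alpha 6 chain that binds laminin, averaged 67.7 ± 9.41 CPM in FOXA2-positive against 44.3 ± 11.01 CPM in FOXA2-negative libraries (0.60 ± 0.148, adjusted p = 0.0111). It passed in 24 of 25 alternatives, and not without FOXA2-positive LDN library 2 (adjusted p = 0.0512). Itga2, a collagen-binding integrin chain, rests on 119 counts in 6 of 8 FOXA2-positive libraries and 9 counts in 1 of 9 FOXA2-negative libraries (adjusted p = 0.0434), so its fold is not given. Dag1, dystroglycan, averaged 234 ± 47.1 CPM in FOXA2-positive against 271 ± 46.0 CPM in FOXA2-negative libraries, and did not pass. Itgb1, the common integrin beta chain, averaged 100.1 ± 6.98 CPM in FOXA2-positive against 113 ± 11.3 CPM in FOXA2-negative libraries and did not pass either.

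Of the matrix assembly enzymes 1 of 17 was higher. Serpinh1, the collagen chaperone HSP47, averaged 235 ± 59.3 CPM in FOXA2-positive against 173 ± 43.4 CPM in FOXA2-negative libraries (0.46 ± 0.109, adjusted p = 0.00849). P4hb, protein disulphide isomerase and a subunit of collagen prolyl hydroxylase, averaged 260 ± 26.3 CPM in FOXA2-positive against 226 ± 17.9 CPM in FOXA2-negative libraries and did not pass. Qsox1, a sulphhydryl oxidase needed for laminin assembly, was the single listed gene called in a treatment comparison. It stood at 122 and 171 CPM in FOXA2-positive LDN libraries, against 49.9, 64.4 and 46.4 CPM in FOXA2-positive RA libraries (1.45 ± 0.272, adjusted p = 0.0148). That call was lost without LDN library 3 (adjusted p = 0.316), without RA library 1 or 3 (0.0725 and 0.0894) and with the compared groups alone (0.062).

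Of the matrix proteases and inhibitors 2 of 20 were higher and 2 lower. Timp2, a metalloproteinase inhibitor, averaged 20.1 ± 8.88 CPM in FOXA2-positive against 10.4 ± 5.50 CPM in FOXA2-negative libraries (1.09 ± 0.226, adjusted p = 0.00262). In BMP4 it stood at 15.1, 13.9 and 23.6 CPM in FOXA2-positive libraries, against 7.33, 5.38 and 3.96 CPM in FOXA2-negative libraries, with no overlap (1.66 ± 0.389, adjusted p = 0.0319). That call within BMP4 was lost without any of 5 of the 6 BMP4 libraries (adjusted p of 0.0546 to 0.177) and with the compared groups alone (0.12). Plat, tissue plasminogen activator, averaged 13.0 ± 8.92 CPM in FOXA2-positive against 4.40 ± 2.75 CPM in FOXA2-negative libraries (1.45 ± 0.324, adjusted p = 0.00509). Plau, urokinase, averaged 16.3 ± 6.78 CPM in FOXA2-positive against 31.4 ± 14.6 CPM in FOXA2-negative libraries (-0.90 ± 0.262, adjusted p = 0.0334), and passed in 18 of 25 alternatives. Mmp9, a protease that cuts collagen IV, rests on 2 counts in 2 of 8 FOXA2-positive libraries and 129 counts in 6 of 9 FOXA2-negative libraries (adjusted p = 0.0489), so its fold is not given. Itga2 and Mmp9 passed in 10 and 11 of 24 alternatives.

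**Figure D4:**
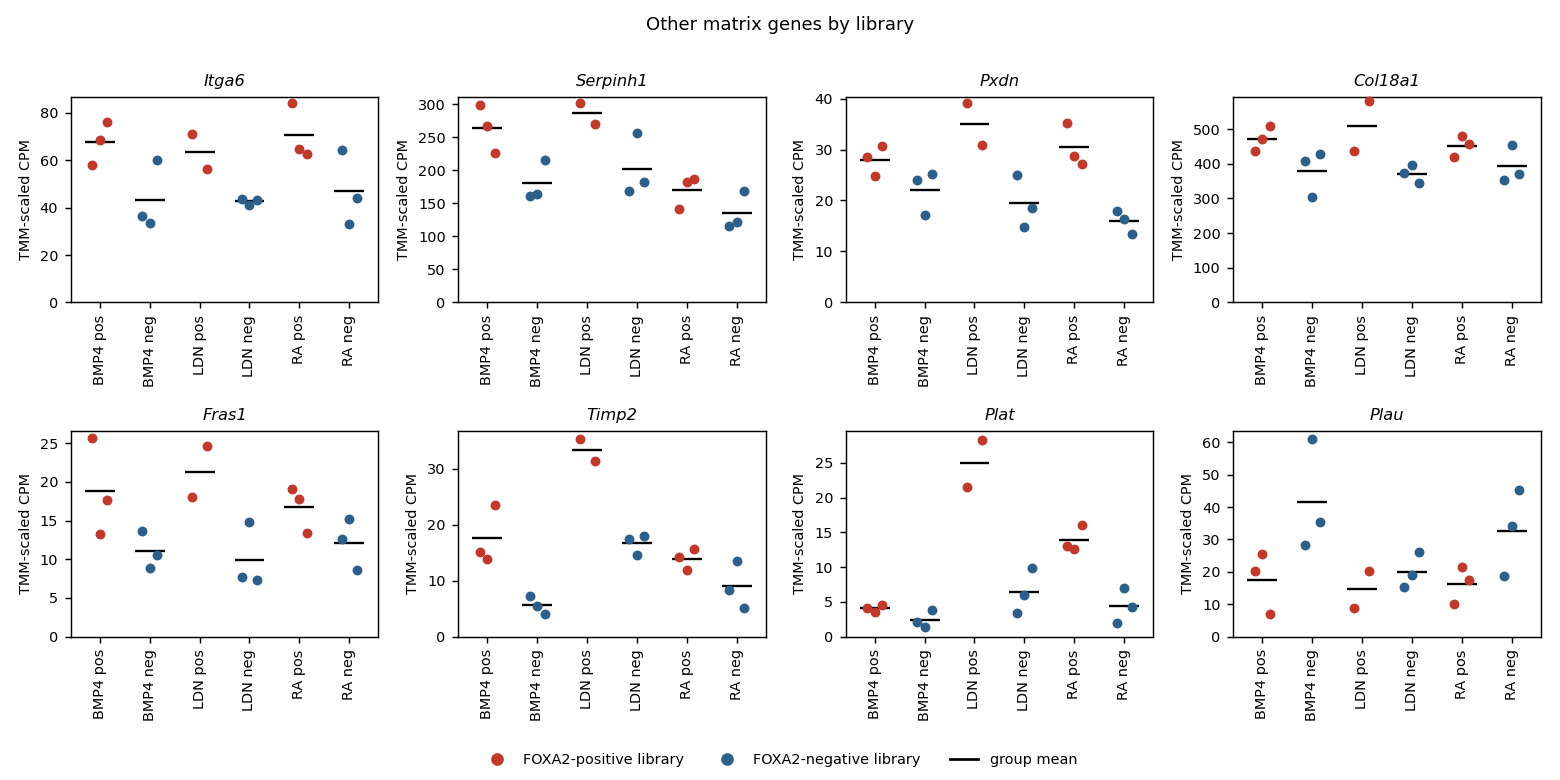
TMM-scaled CPM (vertical axes, from 0) of 8 other matrix genes that passed in the averaged comparison, in each of 17 libraries; points are libraries and bars are group means. Plat lies highest in FOXA2-positive LDN libraries, and Plau lies lower in FOXA2-positive than in FOXA2-negative cells of each treatment by group mean.

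None of the other laminin chains (6 of 7 tested), collagen IV chains (2 of 4) or dystroglycan-glycosylating enzymes (11 of 12) passed in the averaged comparison. Lamb2 averaged 29.5 ± 13.5 CPM in FOXA2-positive against 29.7 ± 8.15 CPM in FOXA2-negative libraries, and Lamb3 averaged 1.17 ± 1.48 CPM in FOXA2-positive against 1.65 ± 1.53 CPM in FOXA2-negative libraries. Col4a5, a chain of later and more specialised collagen IV, averaged 2.53 ± 1.98 CPM in FOXA2-positive against 0.642 ± 0.645 CPM in FOXA2-negative libraries. Lama2, Lama3 and Lama4, the remaining alpha chains, had 84, 158 and 170 counts over all 17 libraries, against 2423 for Lama1 and 8734 for Lama5.

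Markers of other cell types moved with FOXA2 state. In the averaged comparison 4 of 13 tested endoderm markers were higher, among them Sox17, Dab2 and Foxa1, with the list summing to 67.1 to 150 CPM in FOXA2-positive against 12.5 to 49.2 CPM in FOXA2-negative libraries, with Cer1 at 0 in every library and Afp at 0 in FOXA2-positive ones. Of the pluripotency markers 12 of 13 were lower, and they summed to 333 to 573 CPM in FOXA2-positive against 758 to 1240 CPM in FOXA2-negative libraries. Of the surface ectoderm markers 6 of 12 were lower, at 385 to 826 CPM in FOXA2-positive against 702 to 1026 CPM in FOXA2-negative libraries. Neural progenitor markers (2 of 9 tested higher, Cdh2 and Ncam1) summed to 458 to 1068 CPM in FOXA2-positive against 361 to 679 CPM in FOXA2-negative libraries. Single genes weigh heavily in such sums. In FOXA2-positive RA libraries Ncam1 averaged 282 CPM of a neural sum of 594 to 626 CPM. Dppa5a averaged 292 CPM there, of a pluripotency sum of 333 to 462 CPM. Floor plate markers summed to 58.8 to 119 CPM in FOXA2-positive against 26.3 to 50.4 CPM in FOXA2-negative libraries, with Ferd3l at 0 in both. The 2 of 6 tested that were higher were Slit1 and Foxa2. Foxa2 defines the fractions, so its call and its part of these sums followed from the sort. It averaged 25.9, 42.0 and 23.0 CPM in FOXA2-positive cells of BMP4, LDN and RA. The part of these markers in the results for Lama1, Lamb1 and Col4a1, and for the matrix genes called with them, was not tested. Mesenchyme markers summed to 48.9 to 73.1 CPM in FOXA2-positive against 37.5 to 74.0 CPM in FOXA2-negative libraries with 0 of 9 called, and Col3a1 was at 0 in all libraries. The endothelial markers Cdh5 and Emcn were at 0 in all libraries, and the list summed to 2.18 to 17.4 CPM in FOXA2-positive against 2.62 to 29.1 CPM in FOXA2-negative libraries, with 1 of 5 tested called, Pecam1, lower.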

How the data were processed

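SMART-Seq v2 libraries were sequenced, per the labels. The authors deposited raw counts per Ensembl gene for each library. Per the submitters' processing notes, the build was mm10 and the tools included HTSeq 0.11.2, DESeq2 1.26.0, cutadapt 1.18 and UMI-tools 1.0.0. The strand setting, aligner and annotation release were not given in the sources used here. Summary lines that name no gene (49.3% to 54.4% of each tally) stayed out. Gene names, coordinates and exon lengths came from GENCODE M21 on GRCm38 and promoters from RefSeq.

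Groups came from the titles. Counts were analysed with edgeR 4.0.16 in R 4.3.3: filterByExpr (minimum count 10, minimum total 15), TMM scaling and 1 robust quasi-likelihood model of 6 groups with 11 residual degrees of freedom. It was also run on counts simulated from its own fitted spread, which cannot show whether it suits these data. The model gave 9 pairwise comparisons, 3 differences between treatments and the mean over treatments. Each was adjusted by Benjamini-Hochberg over 17813 genes with a threshold of 0.05. Every adjusted p is from edgeR's quasi-likelihood test unless DESeq2 (1.42.0) is named. SE is the size of the log2 fold change over the square root of F, and is approximate. Alternatives were RLE, upper-quartile or no scaling factor, no filter, a filter of 5 CPM in 2 libraries, DESeq2, the compared groups alone, the replicate block, and libraries left out. The members and lists were chosen with earlier results of these data known, and the mean over treatments was added after the counts were examined. Of the listed genes, those called and the pair of highest CPM per list could be named, and those called in the mean were named after their values were seen. The values of some single genes are not reported here.

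Replicate numbers were checked for pairing by correlating deviations from group means over 6669 genes. Same-numbered fractions correlated at 0.587, 0.238 and 0.277 in RA, each over 0.1, and were taken as paired there. Unlike-numbered RA libraries 2 and 3 correlated at 0.243 (FOXA2-positive 2 with FOXA2-negative 3) and 0.168 (FOXA2-positive 3 with FOXA2-negative 2), also over 0.1. RA libraries numbered 1 against those numbered 2 or 3 gave -0.397 to -0.31. The check therefore did not tell pairs 2 and 3 apart. In BMP4 (0.0508 to 0.0793) and LDN (0.0566 and 0.0615) same-numbered fractions were not taken as paired. Unlike-numbered fractions gave lower values, -0.0608 to -0.0113 in BMP4 and -0.0615 to 0.0046 in LDN. The check therefore does not show that same-numbered fractions were unpaired there.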

Additional observations from a re-analysis of the deposited data

How the results depend on the processing

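The counts of members called within treatments moved most. For BMP4, where 1 member was higher, 3 were without a filter on low counts (Lamb1, Lama1 and Col4a1), 2 with the replicate block (Lamb1 and Col4a1), 0 with the compared groups alone and 0 to 1 with a library left out (Lama1 in place of Lamb1 without FOXA2-negative BMP4 library 3). For LDN, where 0 were higher, 2 were without a filter (Lama1 and Col4a1), 1 with DESeq2 (Lama1), 1 with the replicate block (Col4a1), 1 with the compared groups alone (Lama1) and 0 to 1 with a library left out (Lama1, without FOXA2-negative BMP4 library 1 or 3). In the averaged comparison 0 members were lower, but 1 was with DESeq2 and 0 to 1 with a library left out (Lama5, without FOXA2-positive RA library 2). The count of 10 other matrix genes called there ran from 5 to 12 with a library left out, with 5 without FOXA2-positive LDN library 2 and 6 without FOXA2-negative LDN library 3. Over all genes DESeq2 called more than edgeR in every comparison. The cause of these moves was not tested.

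Only members that were not called changed sign. Agrn in BMP4 (0.00) was -0.01 with RLE scaling, without a filter, with DESeq2 and with the compared groups alone, -0.03 with library totals, -0.00 with the stricter filter and without both RA libraries numbered 1, and -0.11 to 0.12 with a library left out. Lamc1 in LDN (0.09) was -0.13 with the replicate block and -0.15 to 0.43 with a library left out. With a library left out Nid2 ran from -0.34 to 0.14 in BMP4, also taking 0.04, and from -0.11 to 0.21 in RA, also taking -0.08. Nid1 in BMP4 ran from -0.63 to 0.29, Agrn in LDN from -0.03 to 0.28 and averaged Agrn from -0.11 to 0.01. Scaling moved the median of all genes by less than 0.1 in every comparison. Replicate numbers were taken as pairs in RA alone, although the check did not tell pairs 2 and 3 apart. There the block called 0 members, as did the fit without it. In BMP4 and LDN same-numbered libraries were not taken as paired, but the check does not show that they were unpaired. In these treatments the block gave Col4a1 1.97 and 2.71 (adjusted p = 0.0261 and 0.0227) and Timp2 in BMP4 1.65 (0.0519). For LDN over RA in FOXA2-positive cells it gave Qsox1 1.43 (0.0553). Groups held 2 or 3 libraries, and mean levels were under 20 CPM for Lama1, Col4a1, Col4a2 and Nid1; the part of either in the missing calls was not tested.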
